A study of Salmo salar with 72 samples.

Results

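The distal intestine (DI) and the spleen of the same 6 Atlantic salmon (Salmo salar) fed the fishmeal control diet (FM) were compared across all genes, using 12 of the 72 RNA-sequencing libraries of the study. The members were chosen by their labels alone: every library of diet FM, 6 labelled distal intestine and 6 labelled spleen, joined by the fish number that both libraries of an animal carry. The fish were smolts fed for 42 days in seawater, and no soybean meal or yeast was in the FM diet. The other 60 libraries came from both tissues of 30 fish fed 5 soybean meal diets: soybean meal alone (SBM), or with inactivated or autolyzed Cyberlindnera jadinii (ICJ, ACJ) or Wickerhamomyces anomalus (IWA, AWA). For each diet 2 fish were sampled from each of 3 tanks, and the labels do not say which fish shared a tank, so a tank effect cannot be told apart from the spread between fish. The titles of the spleen libraries carry the letters DI, and the tissue label was therefore checked against marker genes. The comparison has no diet in it: it asks which genes separate the DI from the spleen of unchallenged fish, and how evenly the 6 fish show them. Fish are numbered 1 to 6 by their replicate number.

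The DI of salmonids is the last part of the gut, where tall enterocytes take up intact proteins and fluid by endocytosis and break them down in large vacuoles above the nucleus. It is also the part that is inflamed by soybean meal in this species. The spleen of teleost fish filters blood, stores red cells and holds macrophages and lymphocytes. Fish have no bone marrow and no lymph nodes, and their red cells and thrombocytes keep a nucleus and so contribute RNA.

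Total counts were 12809583 to 20441787 fragments in the DI and 15062129 to 28156356 in the spleen, and the difference was not past the threshold (exact two-sided sign-flip permutation test over the 6 fish, p = 0.219, adjusted p = 0.263 over 6 measures). The number of genes that reached 1 CPM (a count scaled to a common library size of 10 to the power of 6) was 24201 to 28440 in DI libraries and 26088 to 27484 in spleen libraries. Across genes, log2 CPM of the spleen libraries correlated with each other at r = 0.936 to 0.974, DI libraries at 0.871 to 0.935, and libraries of different tissues at 0.473 to 0.673. The DI library nearest to the spleen was that of fish 2 (median r = 0.642 with the 6 spleen libraries), followed by that of fish 1 (0.597). Values below are CPM by the normalized library size unless another scale is named. Log2 fold changes are DI minus spleen, from edgeR's quasi-likelihood test with the fish as a block. The standard error (SE) after their ± sign is the absolute log2 fold change divided by the square root of the test's F statistic. The test itself gives no SE, and where a tissue had almost no counts this value does not measure precision. Adjusted p-values are those of this test after Benjamini-Hochberg adjustment over all genes tested.

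Slightly more genes were higher in the DI than were lower in it, and of the large differences more were toward the DI, a balance that depended on the scaling. Of 30532 genes tested, 8589 (28.1%) were higher in the DI and 8204 (26.9%) were lower at an adjusted p under 0.05. Differentially expressed genes (DEGs) of at least 4-fold, that is with a log2 fold change above 2 or below -2, numbered 3587 higher in the DI (11.7%) and 2486 lower (8.14%). These shares are the background for every count of list genes below. Over all genes tested, the median log2 difference stood at -0.05. The 6 DI values lay wholly above the 6 spleen values for 6512 genes and wholly below them for 5547, together 39.5% of the genes tested. Of all DEGs, 51.1% were higher in the DI, against 40.6% with upper quartile factors and 37.8% with library size alone, which shifted the median over all genes by -0.196 and -0.305. Of the DEGs of at least 4-fold, 59.1% were higher in the DI, against 52.5% (3312 higher and 2994 lower) with upper quartile factors and 49.0% (3177 and 3301) with library size alone. Of 313 list genes described below, 31 overlap another gene on the same strand (among them cdhr5b, cdhr2, cubn, hexb, muc13b, hoxa13, slc15a1, tal1, epor and fech), and fragments in the shared stretch were counted for neither gene. In bulk tissue, fewer cells of a type and less RNA per cell cannot be told apart, and this holds for every gene below.

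The spread between fish was wider in the DI. Of 11682 genes at a mean of at least 10 CPM in both tissues, 10248 had the larger coefficient of variation in the DI, with a median of 0.260 in the DI and 0.132 in the spleen. Genes silent in 1 tissue were also unevenly divided. A mean of at least 10 CPM in the DI with under 3 counts in every spleen library was found for 326 genes, and the reverse for 2. A single library can break this rule: nr5a1b, a spleen gene, had 1.03 CPM in the intestine of fish 2 and no count in the others. The 3 counts were also about 0.203 CPM in the DI and 0.132 in the spleen. What these limits add to the uneven numbers was not tested.

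Marker genes separated the libraries the way the tissue labels do. The summed level of the 10 enterocyte markers tested was 2512 to 21034 CPM in the DI and 69.2 to 96.9 in the spleen, and that of the 9 erythroid markers was 78.4 to 224 CPM in the DI and 2231 to 3772 in the spleen. Cdh17, the liver-intestine cadherin, read 1095, 910.4, 1579, 1530.4, 2233 and 1365 CPM in the DI of fish 1 to 6 and 1.08, 3.69, 0.588, 0.721, 0.951 and 0.457 in their spleens, with no overlap between the tissues. Gata1, the regulator of red cell development, read 139.8, 109, 93.5, 112, 76.03 and 102 CPM in the spleens and 4.498, 6.44, 0.373, 2.45, 2.75 and 0.815 in the intestines. No library stood on the side of the other tissue, so the letters DI in the spleen titles did not go with DI expression.

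**Figure D1:**
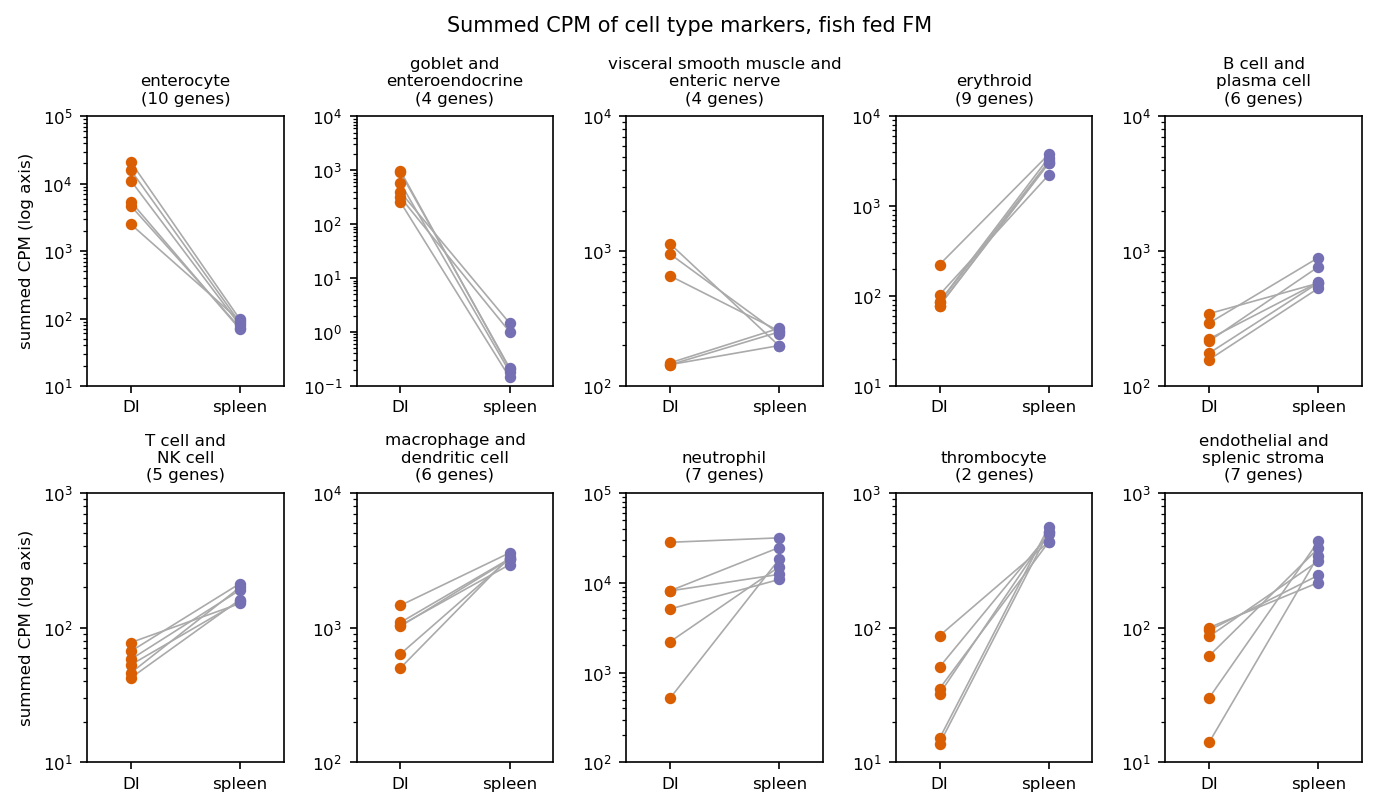
Summed CPM (log axis) of the markers of 10 cell types in the DI (orange) and the spleen (purple) of the 6 fish fed FM, 1 point per library, with grey lines joining the libraries of a fish. Enterocyte, goblet and enteroendocrine markers lay higher in every DI, erythroid, lymphocyte, macrophage, thrombocyte and stromal sums lay higher in every spleen, and the smooth muscle and neutrophil sums of the tissues overlapped. On average, acta2 made up most of the smooth muscle sum, lyz most of the neutrophil sum and agr2 most of the goblet and enteroendocrine sum of the DI. Smtna and kita, of the smooth muscle and enteric nerve list, lay higher in every DI.

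Genes known from the pancreas were read in spleen libraries, and erythroid and thrombocyte markers in DI libraries. Cpb1, a carboxypeptidase made by the exocrine pancreas, read 341, 1308, 0.104, 56.5, 155 and 82.05 CPM in the spleens and 125, 0.137, 0, 0.158, 7.25 and 0.102 in the intestines, and ctrl, a chymotrypsin-like protease of the same tissue, read 238, 899, 0, 36.04, 101 and 66.04 and 97.7, 12.9, 6.26, 0.789, 5.63 and 1.78. High values of both thus occurred in 5 spleens, most of all that of fish 2, and in the intestine of fish 1. The summed erythroid markers of the DI were highest in fish 2 (224 CPM, against 78.4 to 103 in the other fish), and so were the summed thrombocyte markers (87.1 CPM, against 13.8 to 51.0). Of 4 markers of pancreas, liver and fat, cpb1 was lower in the DI, though not without the fish as a block (log2 fold change -6.73 and -3.87), and cidec, a lipid droplet protein, was higher. Their part in the results below was not tested, other than by leaving each fish out in turn.

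Digestive enzymes of the brush border, the microvillous surface of the enterocyte, were higher in the DI without exception. All 10 tested genes of this list were higher in the DI by at least 4-fold, against 11.7% of all genes tested, with a median log2 fold change of 13.19. Mep1a.2 and mep1bb encode the alpha and beta subunits of meprin, a peptidase anchored in the membrane. Mep1a.2 (ENSSSAG00000044888, chromosome 15, 42650018 to 42665438 of assembly Ssal_v3.1) read 795, 504, 1105, 967, 1100.0 and 655 CPM in the intestines and 0 to 0.0457 CPM in the spleens, and its log2 fold change was 15.38 ± 0.518, adjusted p = 7.63e-07. Mep1bb read 428, 208, 339, 495, 672 and 261 CPM in the DI and had no count in any spleen, which makes it at least 3039-fold higher against a floor of 3 counts per library. Fish 2 was the lowest intestine for both.

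Naaladl1, a brush border peptidase, varied little between fish, at 411, 319, 394, 439.5, 463 and 466 CPM in the DI and 0 to 0.135 CPM in the spleen. Alpi.2, an intestinal alkaline phosphatase, read 591, 311, 354, 1339.5, 1146 and 441 CPM in the DI and 0 to 0.1096 in the spleen (log2 fold change 13.95 ± 0.681, adjusted p = 2.25e-06). Its neighbour by name alpi.1 was low, at 1.23 to 7.103 CPM in the DI, and still higher than in the spleen (0 to 0.202 CPM). Ggt1b, a gamma-glutamyltransferase that splits glutathione, and xpnpep2, an aminopeptidase, were higher by 12.64 and 9.42 on the log2 scale. Trehalase (treh) was the exception in the spleen, with 36.1 to 53.6 CPM there against 197 to 345 CPM in the DI, a log2 fold change of 2.68.

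The disaccharidase si (sucrase-isomaltase) and tmprss15 (enteropeptidase, which activates trypsinogen) varied far more between fish. Si read 336, 41.9, 29.9, 629.98, 1211 and 49.3 CPM in the intestines of fish 1 to 6, and tmprss15 read 58.04, 5.82, 12.7, 177, 281 and 12.5 CPM. Fish 1, 4 and 5 were high for both and fish 2, 3 and 6 were low. All values were still above the spleens, where si read 0.0432 to 0.252 CPM and tmprss15 had no count, which puts the DI mean at least 692-fold higher.

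**Figure D2:**
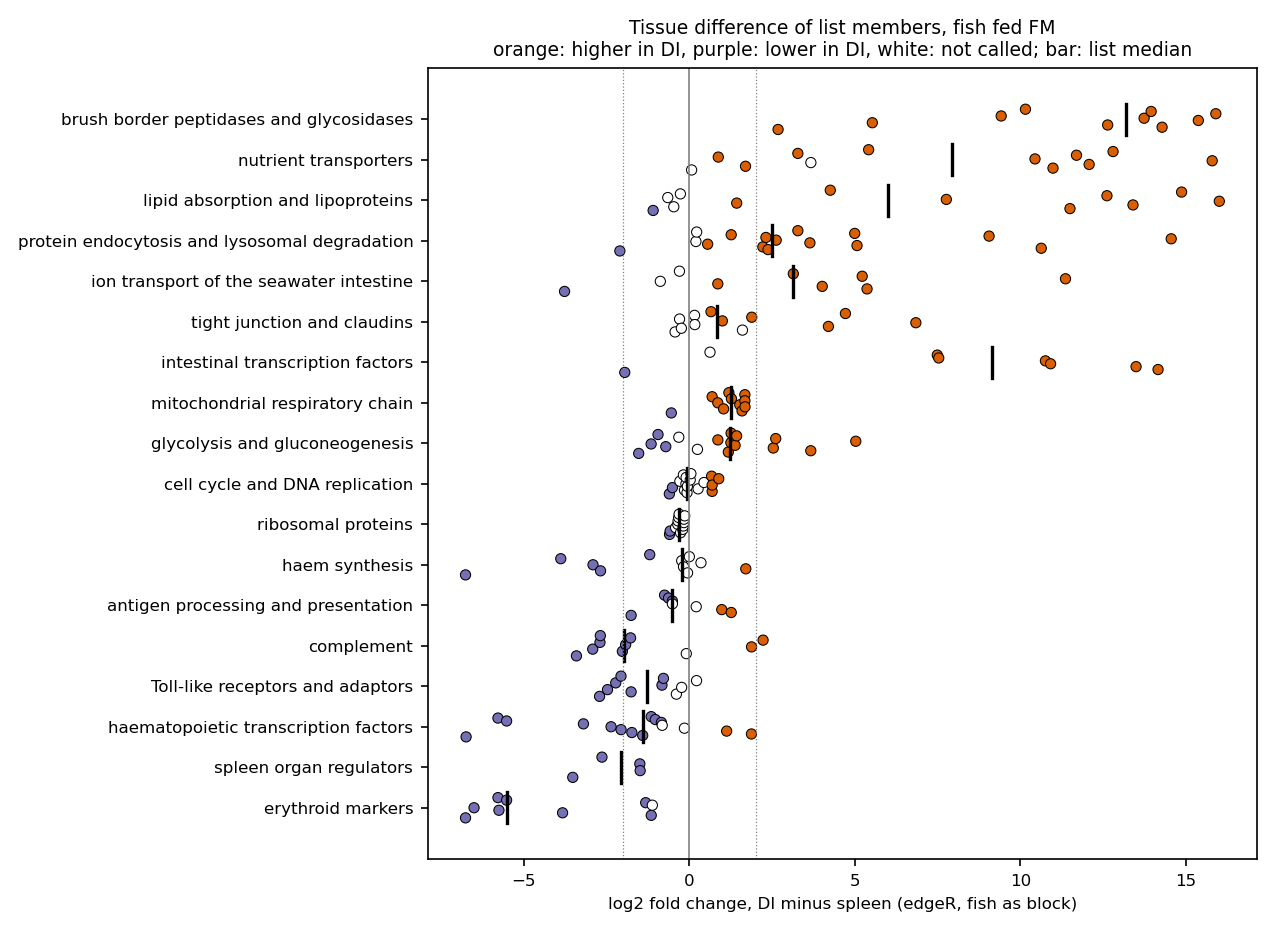
Log2 fold change, DI minus spleen, of the tested members of 18 gene lists in fish fed FM; each point is a gene, coloured orange (higher in the DI), purple (lower) or white (not past the adjusted p threshold), the black bar is the list median and the dotted lines mark 4-fold. Brush border enzymes had the highest list median (13.19) and erythroid markers the lowest (-5.52), though with DESeq2 the median of the enterocyte markers (12.80) was above that of the enzymes (12.54), while cell cycle genes (-0.06) and ribosomal proteins (-0.31) lay near 0.

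Nutrient transporters followed, with 10 of 12 tested genes higher in the DI, 8 of them by at least 4-fold, and none lower. The sodium-dependent glucose carrier slc5a1 read 333, 127, 269, 494, 926 and 210.2 CPM in the DI and 0 to 0.1802 in the spleen (log2 fold change 12.801 ± 0.724, adjusted p = 4.38e-06). Slc6a19, the main carrier of neutral amino acids, read 371, 127, 375, 449.9, 616 and 282 CPM in the DI with no count in any spleen, at least 2809.9-fold higher. Slc3a1, the heavy chain of the transporter for cystine and basic amino acids, read 339.7, 399.7, 825, 426, 699 and 593 CPM in the DI and 0.03604 to 0.475 in the spleen. For these 3 genes the lowest DI value lay far above the highest spleen value.

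Basolateral amino acid exporters were higher as well, from a spleen level above 0. Slc7a7, a light chain for basic amino acids, had means of 78.7 ± 39.8 (SD, n = 6) CPM in the DI and 7.27 ± 0.985 CPM in the spleen, and its partner slc3a2a had 370.2 ± 132 and 8.396 ± 2.42 CPM. Slc2a5, a fructose carrier, and slc19a3a, a thiamine carrier, were near 0 in the spleen and read 32.9 to 89.3 and 18.8 to 111 CPM in the DI. The folate carrier slc46a1 had the smallest called difference of the list, 0.87 on the log2 scale.

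Slc15a1, the peptide carrier PepT1 of the brush border, was not called (log2 fold change 3.67 ± 2.06, adjusted p = 0.16). Its DI values were 35.98, 0.616, 0.447, 185, 342 and 0.153 CPM, and the spleens read 0.539 to 0.973 CPM. Fish 1, 4 and 5 lay above all spleens, and fish 2, 3 and 6 lay within or below the spleen range. The taurine carriers also parted: slc6a6 was higher in the DI (162 ± 46.04 against 48.9 ± 6.24 CPM, log2 fold change 1.698 ± 0.168, adjusted p = 7.42e-05), whereas slc6a6b had 128 ± 32.96 and 119.9 ± 14.4 CPM and a log2 fold change of 0.07 ± 0.168, adjusted p = 0.75. Of 5 genes of taurine metabolism and transport, 3 were higher in the DI, among them cdo1, which oxidizes cysteine (2.72), and gadl1 was lower (-0.82). The call of gadl1 was lost without fish 2, 3, 4 or 6 and without the fish as a block (-0.75). In a fit of all 72 libraries it was lost as well (-0.88).

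Among genes of lipid absorption and lipoproteins, 8 of 12 were higher in the DI, 7 by at least 4-fold, and slc51a was lower. Slc10a2, the sodium-dependent bile acid carrier that recovers bile acids in the last part of the gut, read 1024, 1343, 2709.6, 1136, 1316 and 1719 CPM in the intestines and 0 to 0.242 in the spleens (log2 fold change 13.403 ± 0.526, adjusted p = 1.01e-06). Slc51a, a subunit of the basolateral exporter that passes bile acids on, had only 1.12 to 9.62 CPM in the DI and 6.08 to 10.1 in the spleen, with overlapping groups and a log2 fold change of -1.09 (adjusted p = 0.021). Without fish 3 or fish 5 the call of slc51a was lost (-0.98 and -1.03), and so it was without the fish as a block (-0.80). The apical carrier slc10a2 and this basolateral subunit thus had opposite directions, but the call of slc51a did not hold in every fit. Other copies without a name were not looked at.

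Apoa1, the main protein of high-density lipoprotein, was among the 10 most abundant DI genes and among the 10 largest increases (ENSSSAG00000097945, chromosome 9, 121495382 to 121497859). It read 7853, 178, 864, 10329, 13038 and 1014 CPM in the intestines of fish 1 to 6, from fish 5 to fish 2 a range of more than an order of magnitude, and 0 to 0.337 CPM in the spleens. Its log2 fold change was 16.01 ± 1.08, adjusted p = 1.03e-05. Apoea, a copy of apolipoprotein E, followed the same fish, at 5095, 758, 1353, 4341, 12195 and 1127 CPM. Its copy apoeb was lower and present in both tissues, at 24.3 to 129 CPM in the DI and 6.33 to 74.5 in the spleen (log2 fold change 1.43, and 1.17 and no longer called without the fish as a block).

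Genes of cholesterol and fatty acid handling were higher in the DI. Npc1l1, the cholesterol importer, read 428, 182, 237, 1106, 1182 and 334 CPM in the DI and 0.469 to 3.54 in the spleen. Abcg5, a subunit of the sterol exporter, read 86.8 to 318 CPM in the DI and had no count in any spleen, at least 1474-fold higher. Acsl5, which activates long-chain fatty acids, and dgat1a, which makes triglycerides, were higher by 12.62 and 4.26 on the log2 scale. Apobb.1, apoc1 and plin3 were not called, and their groups overlapped.

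Endocytosis receptors and lysosomal enzymes included some of the most abundant genes of the DI. Of 16 genes tested, 13 were higher in the DI, 11 by at least 4-fold, and psap, the precursor of the saposins, was lower. Cubn (cubilin) and lrp2b (a copy of megalin) encode the receptors that bind filtered or luminal protein together. Cubn read 2109, 2720.0, 2249, 1957, 686 and 3988 CPM in the intestines and 3.29 to 5.85 in the spleens (log2 fold change 9.06 ± 0.396, adjusted p = 1.42e-06). Lrp2b read 452, 2424, 1499.8, 413, 2.75 and 3600.1 CPM in the intestines and 0.0865 to 1.14 in the spleens (log2 fold change 10.63 ± 0.838, adjusted p = 2.35e-05). Fish 5 was the lowest for both receptors, and for lrp2b its value was far below that of any other intestine, though still above every spleen. The copy lrp2a was not called: it read 4.74 to 96.3 CPM in the DI and 9.15 to 49.9 in the spleen.

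Ctsbb, a copy of the lysosomal protease cathepsin B (chromosome 6, 68420082 to 68426448), was the second most abundant gene of the DI, at 11626, 14012, 24989, 7729.9, 5372 and 13799.8 CPM, against 0.0915 to 0.9501 CPM in the spleen (log2 fold change 14.56 ± 0.6595, adjusted p = 1.63e-06). Lgmn (legumain), an asparaginyl protease of the same compartment, read 6621, 8275, 14218, 2729, 1976 and 10557 CPM in the intestines and 132, 238, 133, 212, 188 and 199 in the spleens (log2 fold change 5.07 ± 0.546, adjusted p = 1.30e-04). Fish 3 was the highest and fish 5 the lowest for both proteases. Nagab and hexb, which remove sugars from glycoproteins and glycolipids, read 1349 to 5128 and 947 to 3935 CPM in the DI and 57.1 to 123 and 169 to 248 in the spleen. Per length, the DI mean of ctsbb was 5152 FPKM (CPM per kilobase of exon), that of lgmn 1708, that of nagab 1336 and that of hexb 387.

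Other lysosomal genes were shared. Ctsa, ctsh and ctsz, further cathepsins, had spleen levels well above 0 (229 to 337, 204 to 339 and 29.9 to 60.3 CPM) and were higher in the DI by 2.31, 2.38 and 2.22 on the log2 scale. Lamp2, a protein of the lysosomal membrane, was higher by 3.64, its relative lamp1 by 0.55, a call that was lost without fish 1, 2, 3, 5 or 6 (0.39 to 0.61) and with upper quartile factors (0.36). Tpp1, a tripeptidyl peptidase, had means of 228 ± 85.97 CPM in the DI and 188 ± 27.9 CPM in the spleen and was not called. Psap was higher in the spleen, where it was among the 10 most abundant genes, at 3001, 4433, 3265, 4117, 3496 and 3609.7 CPM against 1317, 2946, 474, 791, 893 and 281 in the DI (log2 fold change -2.099 ± 0.428, adjusted p = 0.0037).

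The 6 intestines thus ordered the fish differently by gene. Fish 1, 4 and 5 held the 3 highest DI values of apoa1, apoea, npc1l1, si, tmprss15, slc15a1 and slc26a6.2, a chloride and bicarbonate exchanger that read 67.3, 9.24, 3.65, 123, 194 and 3.57 CPM. Lrp2b and hoxa9b, which marks the posterior body axis and read 6.497, 6.64, 13.5, 1.4996, 0.985 and 9.17 CPM, had their 3 highest values in fish 2, 3 and 6, although fish 1 and 2 were nearly level for hoxa9b. Of 4 smooth muscle and enteric nerve markers, 3 were higher in the DI. Acta2, the smooth muscle actin and the marker that was not called, followed neither order, at 584, 90.9, 64.1, 868, 101 and 999.95 CPM with fish 1, 4 and 6 high. The DI libraries of fish 3, 4 and 5 had been counted in a separate folder, which matched none of these sets. It did match others: cdh17, cdx1b and hnf4g had their 3 highest DI values in fish 3, 4 and 5. The summed nutrient transporters were 2494 to 3904 CPM in these 3 intestines and 1267 to 1928 in the others. For the summed intestinal transcription factors the ranges were 781 to 1050 and 427 to 624 CPM. The part of the folder in these orders was not tested.

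**Figure D3:**
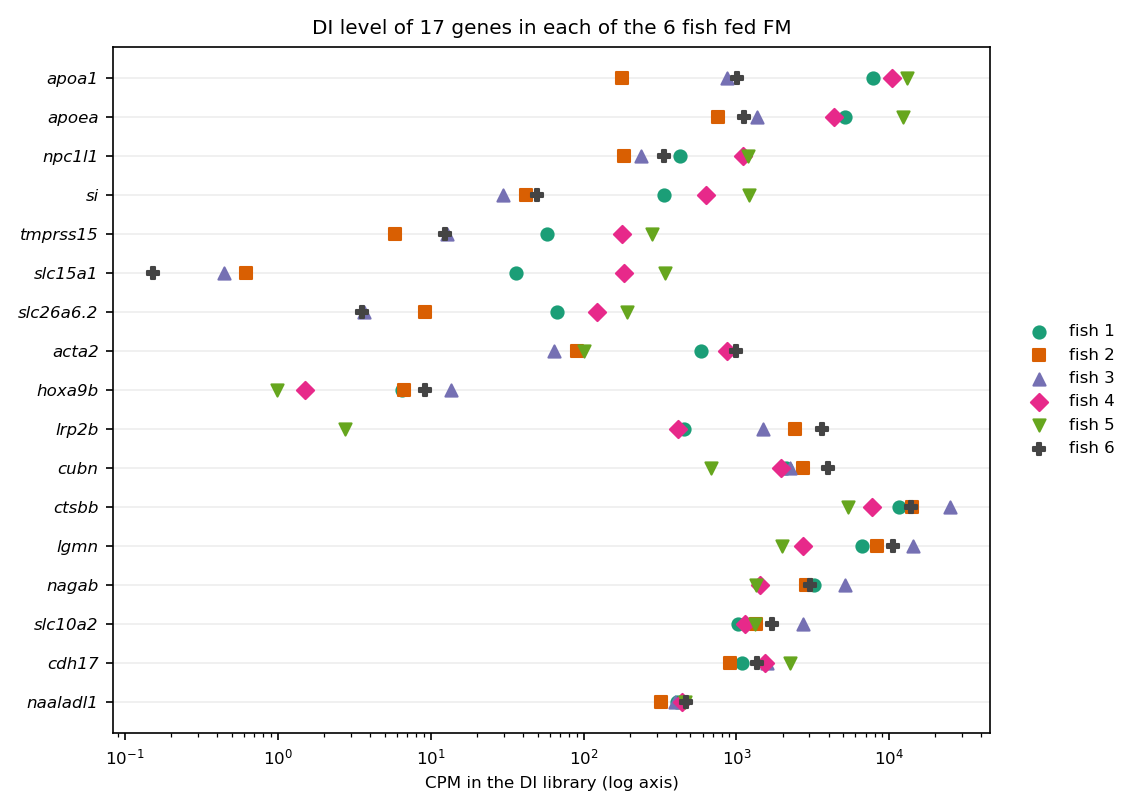
DI level (CPM, log axis) of transport, digestion, lysosomal and positional genes in each of the 6 fish fed FM, 1 symbol per fish. The levels of slc15a1 and lrp2b spanned the widest ranges (0.153 to 342 and 2.75 to 3600.1 CPM) with fish 5 at opposite ends, while naaladl1 stayed at 319 to 466 CPM.

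Ion transport genes of the seawater intestine were mostly higher in the DI. Marine fish drink and absorb salt and water across the gut, and slc12a1, the sodium, potassium and chloride cotransporter, takes part in that uptake. Of 9 genes tested, 6 were higher in the DI and 1 was lower. Slc12a1 read 20.7, 29.9, 78.3, 108, 54.5 and 157 CPM in the intestines and 0 to 0.0865 in the spleens (log2 fold change 11.36 ± 0.598, adjusted p = 3.15e-06). Atp1b1a, a beta subunit of the sodium pump, read 139.7, 239.6, 97.2, 757, 164 and 309 CPM in the DI, with fish 4 the highest, and 9.77 to 18.7 in the spleen. Slc9a1b, a copy of the sodium and proton exchanger of most cells, was the gene that was lower, at 1.94 to 13.3 CPM in the DI and 66.6 to 103 in the spleen (log2 fold change -3.77 ± 0.372, adjusted p = 7.95e-05).

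The 4 aquaporins tested, all of them membrane channels for water or glycerol, split evenly. Aqp8 read 89.6, 107, 57.3, 33.8, 18.9 and 119 CPM and aqp10b 28.7, 17.5, 38.8, 24.2, 53.4 and 30.5 CPM in the DI, and the spleens read 0 to 0.0674 and 0 to 0.03604 CPM. Aqp1, the water channel of red cells, was among the 10 largest decreases, at 301, 227, 196, 191, 259 and 144 CPM in the spleens and 4.19, 15.5, 0.894, 0.789, 0.774 and 0.357 in the intestines (log2 fold change -7.05 ± 0.743, adjusted p = 1.14e-04). The highest DI value of aqp1 was that of fish 2, the fish with the highest summed erythroid markers. Aqp7 was low in both tissues and lower in the DI (log2 fold change -1.996).

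Junction genes differed less. Of 12 genes tested, 6 were higher in the DI, 3 by at least 4-fold, and none was lower. Cldn3c, a claudin, read 39.4, 41.1, 118, 56.7, 114 and 116 CPM in the DI and 0.137 to 2.29 in the spleen. Marveld2b and marveld3, which belong to the tricellulin family, were higher by 4.202 and 4.72 on the log2 scale. Tjp1a, a scaffold of the junction, was higher by 0.998, while cldn12, cldn7a, cldn5a, tjp1b and tjp2b had log2 fold changes between -0.43 and 0.17 and were not called.

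All 4 tested goblet and enteroendocrine markers were higher in the DI by at least 4-fold. Muc13b, a mucin of the cell surface, read 857, 662, 1251, 1113, 1462 and 1175 CPM in the DI and 0.0692 to 7.97 in the spleen. Muc3a, another gene with a mucin symbol, gave the largest fold change of all named genes by the rule used, 16.65 ± 0.593, adjusted p = 7.80e-07, with 1094, 894, 1786, 872, 2123 and 1740.4 CPM in the intestines and 1 count in all 6 spleens. Agr2, which folds mucins in goblet cells, read 303, 392, 967, 248, 879.8 and 574 CPM in the DI and 0.0692 to 0.741 in the spleen. The hormone pyy read 9.25, 1.37, 4.03, 5.998, 31.2 and 3.72 CPM in the DI with fish 5 the highest, and insm1b, a regulator of endocrine cells, read 1.096 to 3.802 CPM. Krt18b, an epithelial keratin listed among the enterocyte markers and among the keratins and mucins, was lower in the DI, at 16.03 to 63.3 CPM in the DI and 67.6 to 94.9 in the spleen (log2 fold change -1.24 ± 0.266, adjusted p = 0.0048).

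The largest increases named by rule also held genes outside the lists. Fuom (fucose mutarotase) read 487, 333, 648, 578, 896 and 314 CPM in the DI and xdh (xanthine dehydrogenase, which makes uric acid) read 232, 173, 286, 406, 235 and 287 CPM, and neither had a count in any spleen. They were at least 4117-fold and 2047-fold higher. Frrs1a, a ferric reductase by name, read 636, 471, 754, 751, 604 and 525 CPM in the intestines and a single count in 1 spleen. Ret2, a retinol-binding protein by its symbol, read 1239, 165, 248, 1246, 2476 and 137 CPM and zanl, a zonadhesin-like gene, 222, 24.9, 373, 897, 1447 and 755 CPM. The 3 highest values of ret2 were again those of fish 1, 4 and 5, and the lowest of zanl was that of fish 2.

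Transcription factors of the intestine were mostly higher in the DI. Of 8 intestinal factors tested, 6 were higher in the DI, each by at least 4-fold, and 1 was lower. Cdx1b, a caudal factor of the posterior gut, read 95.7, 87.3, 163, 104, 156 and 87.1 CPM in the intestines and had no count in any spleen, at least 876-fold higher. Hnf4g, a hepatocyte nuclear factor that acts in enterocytes, read 90.1, 73.9, 179, 146, 155 and 114 CPM in the DI and 0 to 0.216 in the spleen. Creb3l3a, a factor of lipid metabolism, read 227, 130.5, 232, 247, 392 and 192 CPM in the DI, and its copy creb3l3b read 10.2, 3.698, 3.802, 19.6, 28.4 and 3.26 with no count in any spleen. Elf3, an epithelial factor, was higher by 7.53 on the log2 scale. Nr1h4, the bile acid receptor, was the factor that was lower in the DI, at 1.48 to 6.75 CPM against 10.8 to 17.9 in the spleen (log2 fold change -1.95 ± 0.361, adjusted p = 0.0023).

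The Hox genes that were called divided by position number, and Hox genes encode position along the body axis. Hoxa13 read 3.06, 9.72, 24.7, 18.1, 11.4 and 17.02 CPM in the intestines and 0 in all spleens, at least 106-fold higher, and hoxa9b read 0.985 to 13.5 CPM against 0 to 0.259 (log2 fold change 5.81 ± 0.922, adjusted p = 0.001). Among the anterior genes, hoxa4a and hoxc5 were lower in the DI, at 0.0745 to 1.64 and 0.153 to 1.64 CPM against 3.84 to 5.92 and 4.89 to 7.601 in the spleen. Hoxc6, also an anterior gene, was not called and leaned the other way, with a log2 fold change of 0.81 on FM in the fit of 72 libraries. These were the 5 Hox genes that were named by position and passed the filter on low counts, and other Hox genes were not analysed here.

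**Figure D4:**
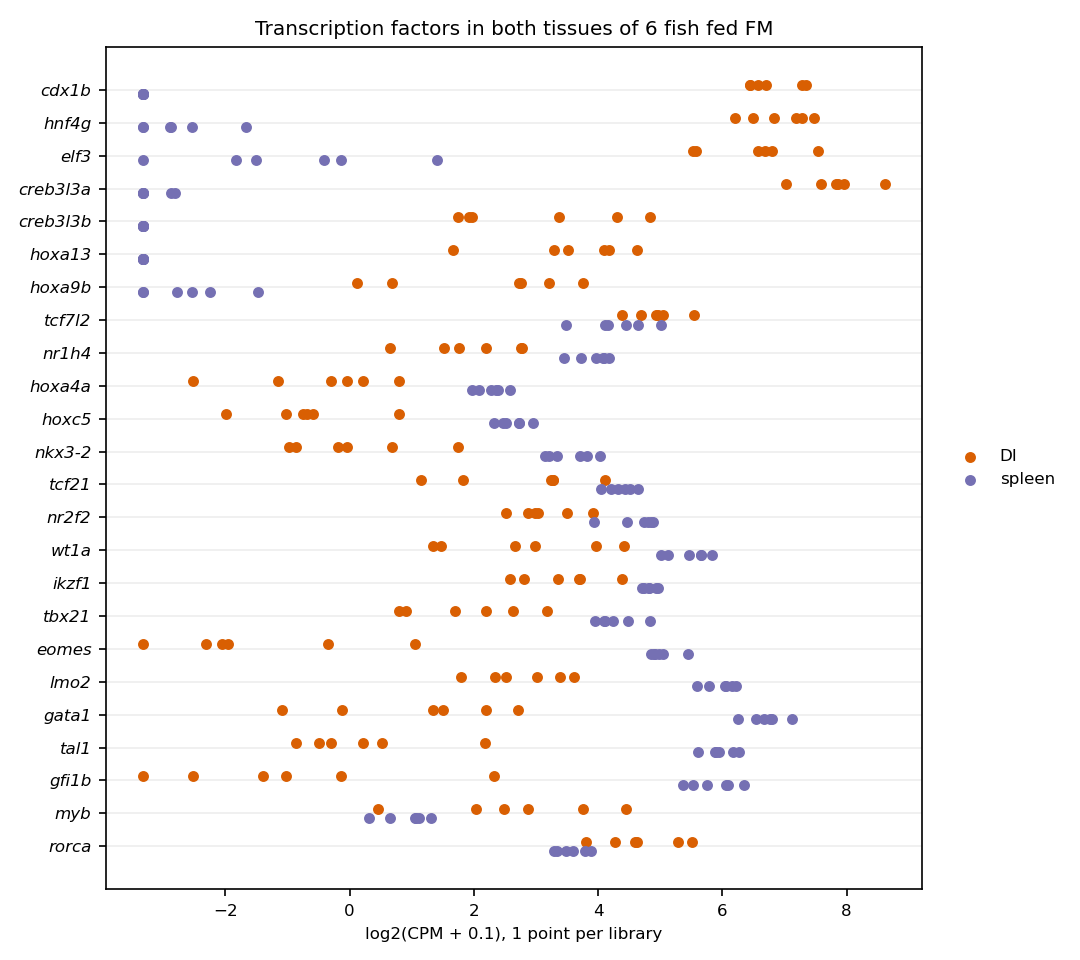
Log2(CPM + 0.1) of transcription factors in the DI (orange) and spleen (purple) of the 6 fish fed FM, 1 point per library, the lowest line of points being libraries with no count. Cdx1b, creb3l3b and hoxa13 had no count in any spleen, and the blood factors gata1, tal1, gfi1b and lmo2 were lower in every DI than in any spleen, while the tissues overlapped for tcf7l2, tcf21, myb and rorca.

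Red cell genes were higher in the spleen. Of 9 erythroid markers tested, 8 were lower in the DI, 6 by at least 4-fold, against 8.14% of all genes tested, with a median log2 fold change of -5.52. Alas2, which starts haem synthesis in red cells, read 2369, 2625, 2088, 1851, 1398 and 1931 CPM in the spleens and 20.9, 96.6, 11.5, 8.76, 27.4 and 7.999 in the intestines (log2 fold change -6.76 ± 0.564, adjusted p = 3.16e-05). Rhag, a membrane protein of red cells, read 127, 107, 80.2, 107, 85.9 and 108 CPM in the spleens and 1.31, 4.999, 0.373, 1.18, 1.27 and 0.204 in the intestines. Epor, the erythropoietin receptor, and tal1, a factor of blood development, were lower in the DI, with log2 fold changes of -5.75 and -5.78. Fish 2 was the highest intestine for alas2, rhag, epor and tal1, and remained below every spleen for each.

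Haem synthesis was split between copies and steps. Besides alas2, the genes hmbsa (-2.91), fech (-2.68), alad (-1.196) and the mitochondrial iron importer slc25a37 (-3.88) were lower in the DI on the log2 scale. The copy hmbsb had 17.2 ± 2.05 and 18.1 ± 3.69 CPM in the DI and spleen and was not called, whereas hmbsa had 8.88 ± 2.15 and 67.4 ± 17.7. Cpox and ppox, which carry out later steps, were not called either. Tfr1a, the transferrin receptor that brings in iron, read 625, 734, 688, 777, 523 and 673 CPM in the spleens and 34.4, 72.7, 50.3, 35.99, 47.7 and 48.3 in the intestines (log2 fold change -3.83 ± 0.225, adjusted p = 4.65e-06). Of the 5 genes of iron handling and haem breakdown tested, fth1b, a copy of the ferritin heavy chain that stores iron, was higher in the DI (1.56 ± 0.774 against 0.2499 ± 0.175 CPM), and hamp, hpxb and ncoa4 were not called. Among 8 genes of the red cell membrane and its antioxidants, 5 were lower in the DI and 2 were higher.

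The genes named as or spanning a haemoglobin subunit with a name in the reference took 2.67 ± 0.456% of counts in the spleen and 0.0296 ± 0.04003% in the DI (SD, n = 6), lower in the DI of 6 of 6 fish. The exact two-sided sign-flip p was 0.0312, the smallest that 6 pairs allow, and 0.0938 after adjustment over 6 measures. The most abundant spleen gene, ENSSSAG00000045065, spans chromosome 6, 37584853 to 37672987, a stretch that contains the reference gene hba for an alpha subunit. It read 34874, 29186, 18491, 24553, 19047 and 20347 CPM in the spleens and 156, 1161, 124, 119, 292 and 63.9 in the intestines, again with fish 2 the highest intestine. The next gene in abundance, ENSSSAG00000087439, overlaps it in position at chromosome 6, 37669287 to 37681277 and holds only reference genes with no name of their own, so its counts are not in the share above, which may leave out haemoglobin genes that carry no name. It had 22576 ± 7431 CPM in the spleen and was lower in the DI (log2 fold change -6.93, against -7.01). Of the 3 spleen genes among the 10 most abundant on chromosome 3 between 64080590 and 64136135, none was given a symbol. All of them were lower in the DI, with log2 fold changes of -6.93 to -6.88.

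Thrombocyte and further spleen genes filled the list of largest decreases. F13a, coagulation factor XIII by symbol, read 902, 751, 1038, 1068, 698 and 892 CPM in the spleens and 4.19, 50.1, 1.34, 2.53, 2.18 and 1.48 in the intestines (log2 fold change -8.0998 ± 0.891, adjusted p = 1.45e-04). Itga2b, the integrin of thrombocytes, read 299.5, 271, 379, 351, 273 and 336 CPM and 1.69, 16.4, 0.671, 1.105, 1.197 and 0.815 CPM. Fish 2 again had the highest DI value, at least several times that of any other fish, for f13a, itga2b, spaca6, nmt1b, prf1.3, a perforin copy, and leca. Nr5a1b, a nuclear receptor of steroid-producing and splenic cells in mammals, read 22.6, 19.001, 39.5, 31.8, 36.3 and 42.4 CPM in the spleens, and 5 of 6 intestines had no count. Oit3 read 18.5 to 46.5 CPM in the spleen and 0 to 1.51 in the DI. Leca was the decrease on which the fish disagreed most, with 101, 73.4, 20.1, 0.03604, 16.3 and 19.8 CPM in the spleens, so that the tissues overlapped although every fish was lower in the DI.

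Most factors of the blood lineages were lower in the DI. Of 15 tested, 11 were lower and 2 were higher. Gfi1b, which represses genes in red cells and thrombocytes, read 81.1, 53.8, 66.2, 67.98, 41.1 and 46.2 CPM in the spleens and 0.812, 4.93, 0.0745, 0.395, 0.282 and 0 in the intestines (log2 fold change -6.74 ± 0.8201, adjusted p = 2.47e-04). Lmo2, a partner of tal1, had a log2 fold change of -3.199, ikzf1 (Ikaros) -1.41 and tbx21, a factor of type 1 T cells and natural killer cells, -2.36. Myb, a factor of proliferating progenitors, was higher in the DI (3.998, 13.4, 1.27, 21.7, 5.49 and 7.23 against 1.15 to 2.38 CPM, log2 fold change 1.88 ± 0.524, adjusted p = 0.016), with fish 3 within the spleen range. With library size alone myb was not called (1.58). Rorca, a copy of the factor of type 17 lymphocytes, was higher as well, at 27.7 ± 12.02 and 11.9 ± 2.02 CPM (log2 fold change 1.13 ± 0.198, adjusted p = 0.0017).

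Regulators of the spleen as an organ and its stroma were higher in the spleen. All 4 tested regulators were lower in the DI. Nkx3-2, which is needed for the spleen to form in mice, read 14.02, 8.73, 16.3, 9.16, 12.9 and 9.97 CPM in the spleens and 3.25, 1.51, 0.447, 0.868, 0.774 and 0.408 in the intestines. Tcf21 and wt1a, factors of the splenic mesenchyme, were lower in the DI, with log2 fold changes of -1.495 and -2.64. Of 7 endothelial and stromal markers, 6 were lower in the DI. Stab2, a scavenger receptor of sinus endothelium, read 39.02, 61.02, 75.5, 79.1, 131 and 114 CPM in the spleens and 14.4, 19.7, 1.12, 16.5, 4.72 and 7.39 in the intestines (log2 fold change -3.24 ± 0.671, adjusted p = 0.004), and lyve1b, a hyaluronan receptor, had a log2 fold change of -4.12.

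Extracellular matrix did not follow 1 direction. Of 13 genes tested, 5 were lower in the DI, 1 was higher and 7 were not called. The basement membrane collagen col4a1 (-2.23), bgnb, a biglycan copy (-5.57), and the intermediate filament gene vim (-2.47) were lower. Col1a1a, the fibrillar collagen, read 519.9, 358, 42.6, 477, 99.7 and 422 CPM in the intestines and 78.1 to 185 in the spleens and was not called. Fish 3 lay below the spleen range and fish 5 within it.

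Lymphocyte genes were lower in the DI. Of 6 B cell and plasma cell markers tested, 5 were lower in the DI, 4 by at least 4-fold. Cd79b, a part of the B cell receptor, read 158, 81.6, 127, 83.2, 84.98 and 80.9 CPM in the spleens and 28.1, 30.5, 11.8, 11.4, 18.6 and 9.78 in the intestines (log2 fold change -2.58 ± 0.275, adjusted p = 1.22e-04). Cd37, a tetraspanin of B cells, was lower with a log2 fold change of -5.34. Xbp1, a factor of secretory cells, had 133 ± 28.1 and 111 ± 26.3 CPM in the DI and spleen and was not called.

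All 5 tested T and natural killer cell markers were lower in the DI, though only eomes by 4-fold or more. Cd3e, a chain of the T cell receptor complex, read 118, 90.000, 112, 95.9, 92.7 and 119.5 CPM in the spleens and 43.5, 56.4, 34.6, 27.9, 35.5 and 28.9 in the intestines (log2 fold change -1.51 ± 0.1998, adjusted p = 3.79e-04). Cd8a, the co-receptor of cytotoxic T cells, read 31.4, 14.4, 26.8, 13.8, 12.2 and 24.01 and 11.99, 6.71, 15.7, 4.74, 9.78 and 10.04 CPM, and the groups overlapped. Eomes, a factor of cytotoxic and natural killer cells, parted the tissues far more than the surface chains did, at 43.3, 29.9, 31.4, 28.9, 32.9 and 29.96 CPM in the spleens and 0.687, 1.99, 0, 0.158, 0.141 and 0.102 in the intestines (log2 fold change -6.43 ± 0.656, adjusted p = 9.58e-05). Foxp3b, a copy of the regulatory T cell factor, was low in both and lower in the DI (-1.03).

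Of 6 macrophage and dendritic cell markers tested, 4 were lower in the DI and 1 was higher. C1qb and c1qc, chains of the complement protein made by macrophages, read 1319.5, 1033, 920.3, 748, 1035 and 939 and 872, 1103, 1084, 1004, 929 and 1082 CPM in the spleens and 286, 350.1, 96.7, 116, 160.5 and 70.7 and 199, 307, 82.4, 233, 81.7 and 57.6 in the intestines. Mpeg1.1, a pore-forming protein of macrophages, was lower with a log2 fold change of -1.898. Cd68, a lysosomal protein of macrophages, had 325 ± 67.7 and 295 ± 58.8 CPM and was not called. Spic, which in mice marks the splenic macrophages that recycle iron from red cells, was higher in the DI instead: it read 5.37, 8.22, 7.68, 6.08, 8.17 and 5.81 CPM in the intestines and 0 to 0.1096 in the spleens (log2 fold change 6.89 ± 0.473, adjusted p = 1.15e-05).

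Of 7 neutrophil markers tested, 4 were lower in the DI and none was higher. Csf3r, the receptor of granulocyte colony-stimulating factor, had a log2 fold change of -1.81, and ncf1, a subunit of the oxidase, of -1.58. Lyz, a lysozyme, ranked among the 10 most abundant genes of both tissues. It read 7435, 27525, 2085, 7734, 4816 and 343 CPM in the intestines and 11348, 30643, 14378, 23817, 10167 and 17577 in the spleens, and the difference was not called (log2 fold change -1.79 ± 0.7196, adjusted p = 0.064). Fish 2 was the highest for lyz in both tissues and fish 6 the lowest in the DI.

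Complement genes were higher in the spleen, where 7 of 10 tested genes were called, against 2 that were higher in the DI. C6.2, a copy of a component of the membrane attack complex, read 1040.2, 1659, 1605, 1401, 1795 and 1966 CPM in the spleens and 308, 233, 40.2, 194, 113 and 141 in the intestines (log2 fold change -3.41 ± 0.474, adjusted p = 5.12e-04). Cfd, the protease that starts the alternative pathway, read 3811, 4500.0, 3304, 3238, 4251 and 2676 and 2192, 2122, 522, 786, 1047 and 356 CPM (log2 fold change -1.92 ± 0.341, adjusted p = 0.0018). Masp1, a protease of the lectin pathway, and c8g were higher in the DI by 2.23 and 1.88, with overlapping groups.

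Of 10 Toll-like receptors and adaptors tested, 7 were lower in the DI and none was higher. Tlr13 and tlr21, which sense microbial nucleic acids, had log2 fold changes of -2.22 and -2.71, and tlr7, a receptor of viral RNA, of -2.47. Tlr3, a receptor of double-stranded RNA, had 33.8 ± 13.7 and 28.5 ± 8.97 CPM and was not called. Myd88, an adaptor of most of these receptors, and the kinase irak4 were lower to a smaller extent (-0.78 and -0.83).

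Genes of cytokines, chemokines and their receptors were called in both directions, where 26.9% of all genes tested were lower and 28.1% higher. Of 13 genes of cytokines and their receptors tested, 6 were lower in the DI and 3 higher. Of 10 genes of chemokines and their receptors, 5 were lower and 2 higher. Both lists hold more receptors than ligands. The copies of the first interferon gamma receptor chain differed: ifngr1a read 34.2, 27.6, 67.4, 28.97, 58.6 and 43.97 CPM in the intestines and 0.595 to 2.49 in the spleens (log2 fold change 5.02 ± 0.435, adjusted p = 3.93e-05), while ifngr1b was low in both and not called. Of the second chain, ifngr2a was lower in the DI (-1.72) and ifngr2b was not called. Csf1a, a growth factor of macrophages, was near 0 in the DI, at 0 to 0.224 CPM against 2.08 to 5.26 in the spleen. Ackr4b, a scavenger of chemokines, read 3.998, 6.57, 5.81, 8.76, 6.62 and 4.08 CPM in the DI against 0 to 0.146 in the spleen. Ccl19a.1, a chemokine that guides lymphocytes, read 387, 506, 256, 424, 178 and 436 CPM in the spleens and 97.7, 221, 40.2, 78.9, 103 and 12.5 in the intestines.

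Of 8 antigen presentation genes tested, 4 were lower in the DI, 2 without fish 2, against 26.9% of all genes tested, 2 were higher and 2 were not called. Cd74a, the invariant chain of class II molecules, was among the 10 most abundant spleen genes, at 7441, 8118, 6336, 6850.1, 6745 and 7565 CPM, and read 2857, 4199, 1613, 1736, 2211 and 1198 in the intestines (log2 fold change -1.76 ± 0.279, adjusted p = 9.56e-04). Tap1, the peptide pump of class I loading, had a log2 fold change of -0.75, and canx and pdia3, general chaperones of the endoplasmic reticulum, were higher by 1.27 and 0.98. No gene of this list reached 4-fold, apart from 1 that was lower with library size alone.

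Genes of energy metabolism were mostly higher in the DI, by moderate amounts. Of 11 respiratory chain genes tested, 10 were higher in the DI, none by 4-fold, with a median log2 fold change of 1.27, and 1 was lower, a call that was lost without fish 1, 4 or 6. Cox4i1, a subunit of cytochrome c oxidase, read 201, 125, 355, 132, 269.8 and 161 CPM in the intestines and 98.7, 81.7, 45.8, 51.9, 50.4 and 47.2 in the spleens. The joint list of glycolysis and gluconeogenesis had 10 of 16 genes higher and 4 lower, against 28.1% and 26.9% of all genes tested. Pgam1 and pfkla, steps in the middle of glycolysis, were higher by 2.61 and 2.54 on the log2 scale. Hk1 and hk2, the hexokinases that start it in most cells, were lower, with log2 fold changes of -1.15 and -1.53.

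Of 7 detoxification genes tested, 5 were higher in the DI and 1 was lower. Abcc2, a pump for conjugated compounds, read 112, 85.3, 144, 169, 192 and 161 CPM in the intestines and 1.01 to 1.903 in the spleens (log2 fold change 6.48 ± 0.261, adjusted p = 1.08e-06), and cyp27a1.1, a sterol hydroxylase, was higher by 3.03. Abcg2, another efflux pump, was lower in the DI (log2 fold change -3.6999). The catalase copies went opposite ways: cat was higher in the DI (155 ± 48.9 against 40.6 ± 2.78 CPM) and catb was lower (194 ± 79.3 against 516 ± 40.9 CPM).

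Growth-related genes differed little. Of 17 cell cycle and replication genes, 11 were not called, 4 were higher in the DI and 2 lower, none by 4-fold. Mki67, a marker of dividing cells, read 129, 136, 123, 90.8, 146 and 157 CPM in the intestines and 109, 122, 110.00, 118, 147 and 158 in the spleens. Mcm6 and mcm7, subunits of the replication helicase, had log2 fold changes of -0.51 and -0.604, and ccnb1 and cdc20, genes of mitosis, of 0.69 and 0.69. The call of mcm6 was lost without fish 6 (-0.48), that of cdc20 without fish 1, 5 or 6 (0.70 to 0.76). With library size alone no gene of the list was higher and 3 were lower, so the direction of these small differences followed the scaling. Of 7 genes that recombine antigen receptors or repair the breaks, 2 were higher in the DI, near the 28.1% of all genes tested, and 5 were not called. The 2 were prkdc and polm (0.52 and 0.47), and neither was called with upper quartile factors or library size alone, or without fish 1 or fish 2.

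The calls on ribosomal proteins depended on the scaling. Of 13 genes tested, 2 were lower in the DI, 7 with upper quartile factors, all 13 with library size alone and none with relative log expression factors. As a share of counts, all genes named as ribosomal proteins took 1.18 ± 0.175% in the DI and 1.86 ± 0.311% in the spleen (exact sign-flip p = 0.0312, adjusted p = 0.0938), lower in the DI of 6 of 6 fish.

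The most abundant genes named so far were joined by genes that the reference left without a symbol. ENSSSAG00000008530 (chromosome 1, 11988276 to 11996885) was the most abundant gene of the DI, at 29107, 39474, 69945, 17213, 3002 and 44761 CPM, against 6.48 to 13.8 CPM in the spleen. Its lowest value was that of fish 5, as for lrp2b and cubn. ENSSSAG00000000580 (chromosome 4, 79971740 to 79973230) read 10624, 3694, 10327, 7379, 14374 and 4932 CPM in the DI and 0 to 0.292 in the spleen. ENSSSAG00000066617 was highest in fish 5, 4 and 1, at 5964, 1476, 2449, 9477, 15802 and 3351 CPM. Of the 10 most abundant DI genes, lyz alone was not called.

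Salmon carry many genes as copies from an ancient duplication of the genome. Of 189 pairs of genes whose symbols differ only in a final a or b, both genes were called in the same direction in 48 pairs (25.4%) and in opposite directions in 20 (10.6%). With both genes at least 4-fold, 11 pairs (5.82%) went the same way, 9 higher in the DI and 2 lower, and 1 pair (0.529%) went opposite ways. The count of opposite pairs was 3 without fish 2 or fish 6, and 3 without the fish as a block. The pair was lmo4, a partner of transcription factors: lmo4a read 1.87, 1.51, 0.8199, 1.26, 0.493 and 1.48 CPM in the intestines and 13.7, 10.4, 15.01, 12.1, 15.3 and 15.9 in the spleens (log2 fold change -3.51 ± 0.305, adjusted p = 3.96e-05), and lmo4b read 3.998, 4.73, 9.09, 8.84, 7.18 and 7.23 and 1.01, 1.02, 0.692, 0.649, 1.17 and 0.366 (log2 fold change 3.07 ± 0.362, adjusted p = 2.12e-04). The pairs rest on the symbols of the reference alone. Some, such as itpka with itpkb and aida with aidb, may not be copies of 1 gene. Whether the genes of a pair are copies, and whether each pair arose from the same duplication, was not tested.

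In other pairs the 2 genes were called in opposite directions by unequal amounts. Mcoln3b, a cation channel of endosomes and lysosomes, read 206, 196, 419, 146, 222 and 303 CPM in the intestines and 0.0674 to 0.3201 in the spleens, while mcoln3a was low in both and lower in the DI (-1.07 on the log2 scale). Grna, a progranulin copy, read 161 ± 87.7 CPM in the DI and 589 ± 41.7 in the spleen, and grnb 95.99 ± 19.95 and 44.1 ± 5.96, with log2 fold changes of -2.05 and 1.11. Pde4ca, a phosphodiesterase copy, was lower in the DI with a log2 fold change of -4.48, and pde4cb was higher with 1.01.

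The tissue difference of fish fed FM was then compared with that of the 30 fish fed soybean meal diets, in a fit of all 72 libraries. Of 35067 genes tested, 117 (0.334%) had a difference that was larger toward the DI in fish fed FM and 109 (0.311%) a smaller one, and 5448 had an unadjusted p under 0.05. These counts rested on single fish: they were 24 and 7 without FM fish 1, 70 and 43 without fish 2, 18 and 4 without fish 4, 53 and 43 without fish 5, and 4 and 0 without fish 6 (2636 genes smaller toward the DI at an unadjusted p under 0.05), but 250 and 756 without fish 3. Without the DI library of ICJ replicate 4 they were 273 and 417. Of 6073 genes that differed by at least 4-fold on FM and were tested in both fits, 6070 had the same direction in the soybean meal diets. Larger and smaller go by sign, so a less negative difference on FM counts as larger toward the DI. A difference between the contrasts can lie in either tissue, so the means of both are given, as CPM normalized over the 72 libraries. The 3 libraries counted in a separate folder were all DI libraries of FM, and no library of a soybean meal diet was among them. Folder and diet thus go together in part in this contrast, and the part of the folder was not tested.

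For several of the named genes the means of the diets lay apart in the DI and close together in the spleen. Wu:fb13g09, a gene known by its clone name, had a tissue difference of 1.63 on FM and -0.104 on the soybean meal diets, a difference of 1.73 ± 0.273, adjusted p = 0.004 on the log2 scale. Its DI mean was 40.6 ± 8.67 CPM on FM and 14.9 ± 8.14 CPM on the other diets (SD, n = 6 and 30), and its spleen means were 13.2 ± 3.21 and 14.8 ± 3.22. Hecd2 had DI means of 24.01 ± 13.6 and 6.17 ± 2.75 CPM and spleen means of 4.47 ± 0.953 and 4.12 ± 0.642. Hmgb3, a high mobility group protein, had DI means of 67.7 ± 21.01 and 26.04 ± 17.3 CPM and spleen means of 41.8 ± 7.44 and 41.96 ± 5.34. Dlgap4b, lonrf1, ubxn2a and slc25a27, a mitochondrial carrier, also had larger differences toward the DI on FM, by 2.13, 1.295, 1.13 and 1.31 on the log2 scale. Dlgap4b was not higher in the DI on FM: its tissue difference was -0.0454 there and -2.18 on the soybean meal diets. Its DI means were low, at 1.93 and 0.568 CPM. With each FM fish left out in turn, wu:fb13g09 remained called in 6 of 6 fits, hecd2 and hmgb3 in 5, dlgap4b and ubxn2a in 4, and lonrf1 and slc25a27 in 3. Plcxd1.1 and cchcr1 went the other way, with -1.301 and -0.52, and each remained called in 3 of these 6 fits.

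Among members of the gene lists, 5 were called in this contrast. The taurine carriers slc6a6 and slc6a6b had smaller differences toward the DI on FM, -1.35 ± 0.2903, adjusted p = 0.03 for slc6a6 and -0.94 ± 0.227, adjusted p = 0.045 for slc6a6b. The DI mean of slc6a6 was 158 ± 50.02 CPM on FM and 432 ± 162 CPM on the soybean meal diets, while its spleen means were 49.8 ± 6.28 and 51.2 ± 8.69 CPM. Gadl1, an enzyme of taurine and beta-alanine synthesis, read 1.31 ± 0.703 CPM in the DI on FM and 36.7 ± 36.3 CPM on the other diets. Its tissue difference was -0.88 on FM, not past the threshold by edgeR's test in this fit (adjusted p = 0.33), and 2.88 on the other diets. The difference between them was -3.75 ± 0.874, adjusted p = 0.038. Mki67 had a smaller difference toward the DI on FM (-0.66, adjusted p = 0.036). That of slc25a38b, a mitochondrial glycine carrier of haem synthesis, was larger by sign (0.51, adjusted p = 0.02). It was -0.304 on FM and -0.81 on the soybean meal diets, so this gene was higher in the spleen on both. Each of these calls rested on most of the fish: with 1 FM fish left out, slc25a38b remained called in 3 of 6 fits, slc6a6 and slc6a6b in 2, and gadl1 and mki67 in 1, with the direction kept in all. The tissue difference of apoa1 was 15.95 on FM and 13.15 on the soybean meal diets, which was not called (adjusted p = 0.34). Its DI means were 5387 ± 5494 and 1650 ± 2217 CPM, and its spleen means 0.0796 and 2.15 CPM. For genes with almost no spleen counts, such as apoa1, the contrast rests on those few counts. Such a gene can differ between diets in the DI without being called here.

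**Figure D5:**
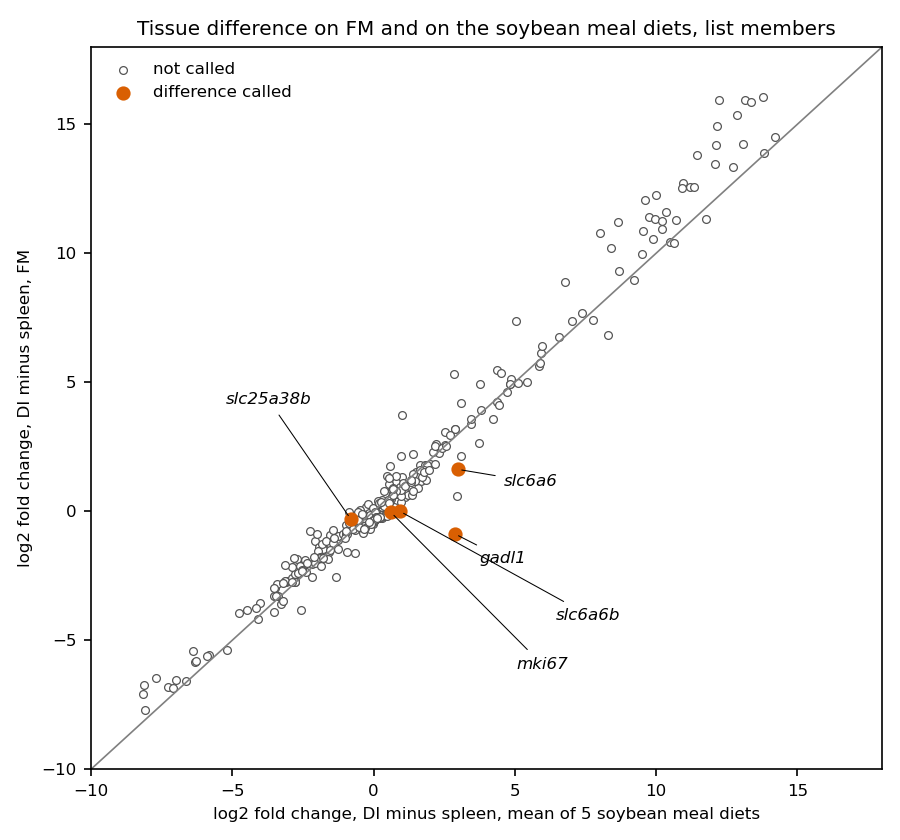
Log2 fold change, DI minus spleen, of list members in fish fed FM (vertical axis) against the mean of the 5 soybean meal diets (horizontal axis); each point is a gene, the grey line marks equal differences and orange points are the 5 genes whose differences were called. Gadl1 lay at -0.88 on FM, a tissue difference not past the threshold, and at 2.88 on the soybean meal diets. Slc6a6 lay at 1.62 on FM and 2.98 on the soybean meal diets.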

How the data were processed

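RNA of the DI and spleen of 6 FM-fed fish was sequenced as stranded poly(A) libraries. The deposited values are raw counts per gene: per the file headers and the methods, the authors aligned trimmed read pairs with STAR to assembly Ssal_v3.1 and counted fragments on the reverse strand with featureCounts. The headers place 3 DI libraries (replicates 3, 4 and 5) in another folder. The tables held 69389 genes, none of them mitochondrial. Symbols came from the RefSeq table of the same assembly, for genes that overlap by at least 50% in position, which named 7045 of 30532 tested genes. No genome sequence was used.

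Counts were tested with edgeR 4.0.16 in R 4.3.3 (filterByExpr, TMM, robust quasi-likelihood fit, fish as a block), and called at a Benjamini-Hochberg adjusted p under 0.05. The FM tissue difference was set against that of the soybean meal diets in a fit of 72 libraries. DESeq2 1.42.0, other scalings, no filter, no block, each fish left out, only fish 1, 2 and 6, and only fish 3, 4 and 5 were the alternatives. In the fit of fish 3, 4 and 5 the DI libraries alone came from the other folder, so folder and tissue cannot be told apart there. The tests were checked on simulated data first. CPM used TMM library sizes, 3 counts being about 0.203 CPM in the DI and 0.132 in the spleen, and FPKM used the exon length. Counting error alone is covered by these floors. Composition was compared with an exact sign-flip permutation test, and haemoglobin was defined as the genes named as, or spanning, the haemoglobin subunits that the reference names.

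The fish number came from the fish identifier in the labels. Deviations of DI and spleen libraries from their tissue means correlated at a median r of 0.187 within a fish (0.0399 to 0.383) and -0.0307 between fish, and 4 of 6 DI libraries were closest to their own fish. For each of 40 lists, the genes named were those with the highest level or largest change and further members that show its direction. The 10 largest increases and decreases with a symbol and at least 10 CPM and the 10 most abundant genes of each tissue were named too. So were gene pairs in opposite directions and, among genes with a symbol, the 10 with the smallest p against the soybean meal diets. Mcoln3, grn, pde4c and proz were added after their values were seen. The lists and members were chosen with earlier results of these data known. Some list members are counted but not reported by name here. Nothing else in the files was used.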

Additional observations from a re-analysis of the deposited data

Results flagged for a closer look

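The highest or lowest of 6 fish stood far from the rest, by Dixon's 95% critical value for 6 samples, in 67 of 445 sets of values checked (15.1%). The limit is made to flag about 1 in 20 sets of independent, normally distributed values. Here the values were CPM of genes that vary together, and a set with counts in 1 library alone is always flagged. The share is therefore a description, and its excess over 1 in 20 was not tested. Of the 35 in the DI, 26 were of fish 2, and of the 32 in the spleen, 16 were of fish 2 and 8 of fish 1.

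The intestine of fish 2 was the highest for red cell and thrombocyte genes. The haemoglobin share was 0.1104% of counts and the summed erythroid markers 224 CPM, where the next fish had 0.0242% and 103 CPM. The gene that spans hba on chromosome 6 read 1161 CPM (ENSSSAG00000045065) and the gene that overlaps it 1029 CPM (ENSSSAG00000087439). Alas2 read 96.6 (next fish 27.4), aqp1 15.5 (next fish 4.19), epor 4.18 (next fish 1.31), rhag 4.999 (next fish 1.31), tal1 4.45 (next fish 1.34) and gfi1b 4.93 (next fish 0.812) CPM. F13a read 50.1 (next fish 4.19) and itga2b 16.4 (next fish 1.69) CPM. Among the other genes of the largest decreases, spaca6 read 7.601, nmt1b 2.12, oit3 1.51, nr5a1b 1.03, prf1.3 13.7 and leca 4.52 CPM in this intestine. Each of these values lay below the 6 spleen values, apart from those of leca, which overlapped.

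The same intestine was also the highest for lyz (27525 CPM, next fish 7734), which set the summed neutrophil markers (28147 CPM, next fish 8116), and for cd68 (454 CPM, next fish 334), apoeb (129 CPM, next fish 50.4), mcoln3a (5.07 CPM), eomes (1.99 CPM), tlr7 (1.51 CPM) and hoxc5 (1.64 CPM). In the spleen of fish 2, pancreas genes stood out: cpb1 read 1308 (next fish 341) CPM, ctrl 899 (next fish 238) CPM and the summed pancreas, liver and fat markers 2232 (next fish 608) CPM. Intestinal and epithelial genes were also highest there, although low: muc13b at 7.97 (next fish 1.42), cdh17 at 3.69 (next fish 1.08), elf3 at 2.56 (next fish 0.809) and pyy at 0.877 (next fish 0.135) CPM. Apoeb (74.5 CPM, next fish 19.1), ctsa (337 CPM), hpxb (15.5 CPM) and fth1b (0.585 CPM) were the others above a few counts.

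Single counts or a few counts gave the remaining values of that spleen (alpi.2 0.1096 CPM, and frrs1a, insm1b, ret2 and zanl 0.0365 CPM each) and most of those of the spleen of fish 1 (muc3a, cdhr5b and aqp8 0.0674 CPM each, naaladl1 0.135 CPM and agr2 0.741 CPM), as well as aqp10b in fish 4 (0.03604 CPM), slc19a3a in fish 6 (0.0457 CPM) and hnf4g in fish 5 (0.216 CPM).

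In the other fish the values that stood apart followed no common theme. The intestine of fish 1 had the pancreas genes cpb1 (125 CPM, next fish 7.25) and ctrl (97.7 CPM, next fish 12.9), which set the summed pancreas, liver and fat markers (368 CPM), and the lowest cldn12 (2.44 CPM) and pde4cb (12.7 CPM). Fish 3 had the highest slc6a6 (251 CPM, next fish 164) and cpox (36.003 CPM) in the DI, fish 4 the highest atp1b1a (757 CPM, next fish 309) and fish 5 the highest pyy (31.2 CPM, next fish 9.25). Among spleens, fish 1 was the highest for eomes (43.3 CPM) and treh (53.6 CPM) and the lowest for cyp27a1.1 (5.66 CPM). Fish 3 was the lowest for alad (20.5 CPM), fish 4 the highest for cldn5a (2.99 CPM), fish 5 for col4a1 (183 CPM, next fish 131), and fish 6 for cubn (5.85 CPM) and cldn7a (2.698 CPM).

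The tissue difference of fish fed FM differed from the mean of the soybean meal diets, by edgeR's test of the interaction over 72 libraries, for 226 genes. Of the 10 named by smallest p among genes with a symbol, the difference was larger toward the DI on FM for dlgap4b (2.13 on the log2 scale), hecd2 (1.79), wu:fb13g09 (1.73), hmgb3 (1.55), slc25a27 (1.31), lonrf1 (1.295), ubxn2a (1.13) and slc25a38b (0.51), and smaller for plcxd1.1 (-1.301) and cchcr1 (-0.52). Among list members it was smaller for gadl1 (-3.75), slc6a6 (-1.35), slc6a6b (-0.94) and mki67 (-0.66). Larger and smaller go by sign: on FM the tissue differences of dlgap4b and slc25a38b were -0.0454 and -0.304.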

How the results depend on the processing

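Genes of at least 4-fold higher in the DI numbered 5441 with DESeq2 and 5561 by edgeR with no filter on low counts, against 3587. DESeq2 was also run without that filter, so both numbers cover more genes than the main fit. All 3587 were among those of DESeq2. With only fish 1, 2 and 6, whose DI libraries were counted with the rest, 4921 genes were lower in the DI and 1656 by at least 4-fold, against 8204 and 2486, in fits of 3 pairs. Tested against a 4-fold difference with glmTreat, 1027 genes were lower. Leaving out each fish gave 7534 to 8557 genes higher and 6639 to 7853 lower, and no gene called at least 4-fold was called at least 4-fold in the opposite direction under any alternative.

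Without the replicate block, 9208 genes were higher and 8080 lower in the DI, 3734 and 2070 of them by at least 4-fold, 3 gene pairs went opposite ways, and the contrast of FM with the soybean meal diets called 210 and 262 genes against 117 and 109. Opposite gene pairs numbered 2 with DESeq2, relative log expression factors and upper quartile factors, and 1 to 3 with a fish left out, against 1. For FM against the soybean meal diets, no filter gave 55 and 16 genes, and relative log expression factors gave 134 larger and 64 smaller toward the DI. Leaving out ICJ replicate 4 of the DI gave 273 and 417, and leaving out each FM fish gave 4 to 250 larger and 0 to 756 smaller (2636 at an unadjusted p under 0.05 where edgeR called 0). The number of genes at 1 CPM or more, 99 higher in the DI on average, was -54.5 with haemoglobin left out of the totals, and neither difference was past the threshold. Of the named genes and list members, 309 (library size alone) to 337 (relative log expression factors) of 341 kept direction and call under the other scalings and fits of all 6 fish, 322 to 328 with a fish left out, and 283 and 299 with only fish 1, 2 and 6 or 3, 4 and 5. The cause of these shifts was not tested. The planned promoter motifs were not run, since no sequence was at hand. Values under 3 counts limit every fold change against a silent tissue.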

Other observations

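Some members of the lists belong to no comparison above and showed the tissue difference as clearly. Cdhr5b and cdhr2, cadherins that tie microvilli together in mammals, read 611, 454, 1174, 914, 1640.5 and 825 and 319.7, 245, 641, 629.8, 1234 and 490.01 CPM in the intestines of fish 1 to 6, and 0 to 0.0674 and 0 to 0.256 CPM in the spleens. Both overlap another gene on the same strand. Pdzk1, a scaffold of brush border transporters, read 242, 221, 537, 456, 446 and 325 CPM in the DI and 0 to 0.595 in the spleen. The 3 genes were lowest in fish 2, as meprin was.

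The smoothelin copies, which mark contractile smooth muscle, differed in size of effect: smtna read 17.6, 3.77, 6.56, 12.1, 3.24 and 20.8 CPM in the intestines and 0.0432 to 0.685 in the spleens (log2 fold change 5.11 ± 0.445, adjusted p = 4.01e-05), and smtnb 44.3, 38.2, 54.7, 61.7, 28.4 and 95.2 and 21.5, 29.4, 38.5, 33.9, 23.8 and 35.5 CPM (log2 fold change 0.75 ± 0.184, adjusted p = 0.009). Fish 1, 4 and 6, which had the highest acta2, also held the 3 highest smtna values. Kita, a receptor of pacemaker and mast cells, read 9.496, 10.5, 18.4, 10.97, 15.98 and 18.9 CPM in the intestines and 2.02 to 4.28 in the spleens. Cyp4v2b, a fatty acid hydroxylase, read 34.7, 8.97, 26.5, 41.8, 60.5 and 29.8 CPM in the DI and 0 to 0.104 in the spleen, and cidec, a lipid droplet protein, 87.4, 28.8, 58.3, 65.3, 51.5 and 52.8 and 0.732 to 9.098 CPM. Prozb, a copy of protein Z of the clotting system, was higher in the DI (20.1 ± 6.77 against 0.247 ± 0.259 CPM), while proza was lower (11.5 ± 5.62 against 26.1 ± 2.199 CPM).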
